A study of Rattus norvegicus with 15 samples.

Results

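Cultured rat brain microvascular endothelial cells (BMECs) that had received 20 Gy of x-rays were compared between 24 h and 12 h after the exposure. The libraries of both groups were chosen by their titles, 3 at each time, which is 6 of the 15 libraries of the series. The cells were primary cultures from the cortex of Sprague-Dawley rats of 1 litter, 2–3 weeks old, grown in endothelial cell medium with serum and growth supplement and irradiated at 60% confluence with a linear accelerator. The other groups were unexposed control cells, which went through the same handling without x-rays, and cells collected 12 h or 24 h after 5 Gy, also with 3 biological replicates each. The labels name no mutation, transgene or drug for any group. The sources used here do not say which library came from which animal, so the p-values measure the spread between these cultures. The label of the control group gives 12 h of culture, and no unexposed 24 h culture was analysed here, so time after exposure and time in culture cannot be told apart in any value below. Sequencing was of poly-A selected RNA, and the expression of each transcript was deposited as FPKM, a fragment count scaled for transcript length and for the size of the library. FPKM of transcripts with the same gene name were summed, and the 11310 genes whose mean reached 0.5 FPKM across all 15 libraries entered a limma test of log2(FPKM + 1).

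The libraries at 12 h held 6.48 to 6.77 gigabases of aligned sequence and those at 24 h held 6.54 to 7.52 gigabases. Genes at 1 FPKM or more numbered 9346 to 9427 at 12 h and 8896 to 9151 at 24 h. Transcripts of the mitochondrial genome held 4.15% to 4.52% of all FPKM at 12 h and 2.58% to 3.91% at 24 h, and assembled transcripts without a gene name held 29.8% to 30.8% and 32.0% to 32.7%. Markers of the labelled cell type were mostly absent or low in both groups. Of 23 endothelial and barrier markers, 7 had a mean of at least 0.5 FPKM, and Tie1, Emcn and Sox17 were listed at 0 in all 15 libraries. The endothelial cadherin Cdh5 was at 0.0452, 0.0577 and 0.0894 FPKM at 12 h and 0.0497, 0.0794 and 0.0221 FPKM at 24 h, and the tight junction gene Cldn5 was listed at 0, 0 and 0.0316 FPKM at 12 h and at 0 in the libraries at 24 h. The summed level of the endothelial list was 21.7 to 41.4 FPKM at 12 h and 42.7 to 62.7 FPKM at 24 h. The median log2 change of its 7 members tested was -0.0004, so the higher sum did not stand for the list as a whole. Tjp1 rose and Ocln fell, with calls lost in 5 and 4 of the 6 fits that each left out 1 library. Fibroblast and meningeal markers, of which 13 of 15 were tested, summed to 1123 to 1149 FPKM at 12 h and 301 to 442 FPKM at 24 h, and pericyte and smooth muscle markers, with 7 of 11 tested, to 119.7 to 139 FPKM at 12 h and 66.1 to 110.5 FPKM at 24 h. Astrocyte markers, with 5 of 7 tested and Aqp4 listed at 0, summed to 310.1 to 629 FPKM at 12 h and 279.6 to 337 FPKM at 24 h. The fibroblast and meningeal list holds the collagen genes Col1a1 and Col3a1, so its sum also follows these genes. Col1a1 alone had a mean of 260 FPKM at 12 h and 10.1 FPKM at 24 h. By name, 3 of the 13 members tested in that list fell. In bulk samples like these, fewer cells of a type and less RNA per cell cannot be told apart.

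From 12 h to 24 h after 20 Gy, 2830 of 11310 genes passed the test (25%), which asked for a change of at least 1.5-fold on the log2(FPKM + 1) scale with a two-sided p below 0.05 after Benjamini-Hochberg adjustment. Of these, 1079 genes rose (9.54% of the genes tested) and 1751 fell (15.5%). The 3 libraries at 24 h all lay above the 3 at 12 h for 1972 genes (17.4%) and all below them for 3315 genes (29.3%). The median change of all genes tested was -0.13 on the log2 scale, and quantile normalization, which moved that median by 0.11 to -0.02, changed the share of called genes that rose from 38.1% to 47.8%. The changes given below are log2(FPKM + 1) differences ± SE between the times, 24 h minus 12 h, and are to be read beside this median. Counts of list members called are likewise to be read beside the 9.54% of all genes tested that rose and the 15.5% that fell. The filter used the mean over all 15 libraries, so a gene low at 12 h could enter through its 24 h libraries, and the reverse. Such genes, Nr4a3 and Atf3 among them, are counted below with those that rose, so the counts are not independent of the filter. The 12 largest rises and 12 largest falls were taken among called genes at 1 locus with a mean of at least 5 FPKM and no overlap between the times. Their lack of overlap therefore follows from the choice. The rises included inducible HSP70 copies and the immediate early genes Fos, Dusp1 and NR4A receptors. The falls included the collagen gene Col1a1, the fatty acid synthase gene Fasn and 3 mitochondrial transcripts, some of them shorter than a read.

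**Figure D1:**
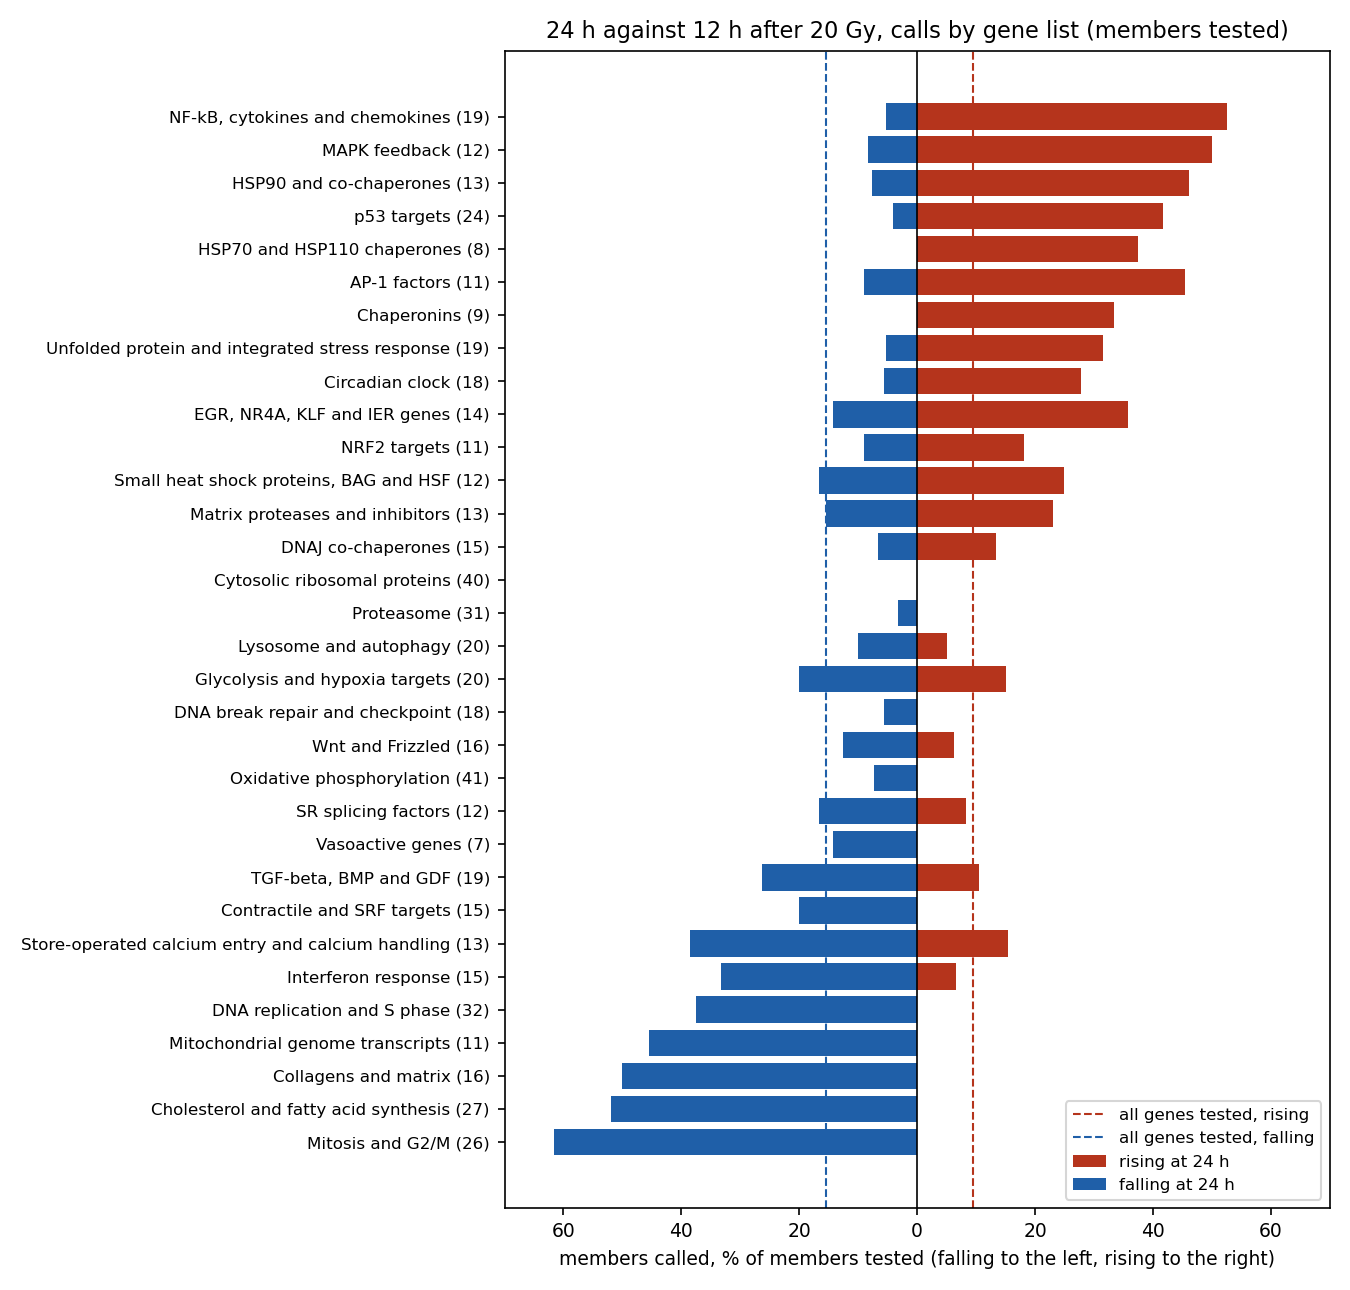
Share of members called in each gene list, in percent of the members tested (number in brackets), with rising genes to the right and falling genes to the left. The dashed lines mark the shares over all genes tested, 9.54% rising and 15.5% falling. Mitosis, cholesterol and fatty acid synthesis, and collagens lie at the falling end, and NF-kB genes, MAPK feedback and HSP90 at the rising end.

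Heat shock proteins are chaperones that bind unfolded or misfolded proteins and help them to refold. HSP70 works with DNAJ co-chaperones, which deliver clients and drive its ATP cycle, and with BAG proteins, which release the nucleotide, while HSP90 completes the folding of kinases and receptors and chaperonins fold proteins inside a closed chamber. Many of these genes are switched on together by heat shock factor 1, which binds inverted repeats of the bases GAA in their promoters, when unfolded protein builds up.

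Promoters of 6 chaperone genes that rose are shown because the heat shock element lies in this region, each from 250 bases before to 30 bases after the start of the gene, from RefSeq on the rat build GRCr8, 5′ to 3′ on the strand of the gene. Capitals mark inverted pairs of the element, GAANNTTC or TTCNNGAA, and a longer run of capitals holds overlapping pairs. Hsph1 (chr12:10427118-10427397, plus strand): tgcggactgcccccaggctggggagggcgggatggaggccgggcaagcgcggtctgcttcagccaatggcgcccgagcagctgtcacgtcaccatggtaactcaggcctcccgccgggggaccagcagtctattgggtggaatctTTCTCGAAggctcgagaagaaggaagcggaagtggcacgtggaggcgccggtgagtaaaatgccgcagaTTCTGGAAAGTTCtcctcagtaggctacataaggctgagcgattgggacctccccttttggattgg
Hspd1 (chr9:64084008-64084287, minus strand): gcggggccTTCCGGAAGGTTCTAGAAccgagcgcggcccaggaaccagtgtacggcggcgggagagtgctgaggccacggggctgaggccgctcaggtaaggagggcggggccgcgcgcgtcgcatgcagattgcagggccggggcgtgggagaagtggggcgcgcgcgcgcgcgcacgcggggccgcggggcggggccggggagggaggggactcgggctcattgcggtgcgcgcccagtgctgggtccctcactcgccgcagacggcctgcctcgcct
Dnaja1 (chr5:60638154-60638433, plus strand): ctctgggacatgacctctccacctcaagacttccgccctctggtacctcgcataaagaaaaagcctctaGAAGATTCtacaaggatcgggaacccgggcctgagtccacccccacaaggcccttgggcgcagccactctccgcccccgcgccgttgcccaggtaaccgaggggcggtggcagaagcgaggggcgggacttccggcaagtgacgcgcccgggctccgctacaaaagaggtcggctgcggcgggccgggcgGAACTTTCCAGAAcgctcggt
Dnajb1 (chr19:41431112-41431391, minus strand): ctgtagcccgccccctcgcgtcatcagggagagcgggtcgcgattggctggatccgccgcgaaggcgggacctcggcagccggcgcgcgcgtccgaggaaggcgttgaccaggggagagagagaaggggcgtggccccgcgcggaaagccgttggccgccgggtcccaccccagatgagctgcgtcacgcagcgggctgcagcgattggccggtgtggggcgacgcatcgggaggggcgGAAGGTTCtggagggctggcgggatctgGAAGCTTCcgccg
Bag3 (chr1:192533210-192533489, plus strand): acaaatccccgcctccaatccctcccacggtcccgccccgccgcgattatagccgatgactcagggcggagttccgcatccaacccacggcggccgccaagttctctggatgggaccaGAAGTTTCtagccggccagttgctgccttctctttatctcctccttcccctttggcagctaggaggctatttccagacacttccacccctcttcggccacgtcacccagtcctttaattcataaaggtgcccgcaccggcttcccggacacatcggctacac
Hspb1 (chr12:26432272-26432551, minus strand): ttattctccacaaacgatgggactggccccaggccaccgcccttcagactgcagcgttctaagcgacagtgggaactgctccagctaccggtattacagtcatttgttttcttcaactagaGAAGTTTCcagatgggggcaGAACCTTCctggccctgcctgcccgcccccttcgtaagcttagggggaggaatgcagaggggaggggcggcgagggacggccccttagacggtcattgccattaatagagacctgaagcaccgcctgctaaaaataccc In Hspd1 the marked bases form 1 run of 18 bases, and in Hsph1 and Dnaja1 the longest run has 13 bases, the length of 3 units. Windows of 300 bases were searched on both strands, from 250 bases before to 50 bases after the start. The form with 3 units, GAANNTTCNNGAA, was found in 0.798% of all 33469 promoter windows, in 7 of the 55 chaperone windows and in 5 of the 14 chaperone windows whose gene rose. Among the 7808 windows of genes tested it was found in 0.525%, and among the 763 windows of all genes that rose in 1.05%. The pair GAANNTTC, part of the form with 3 units, was found in 8.59% of all windows, in 5.67% of those of genes tested, in 6.16% of those of all genes that rose and in 9 of the 14. The pair TTCNNGAA was found in 8.77%, 6.94% and 6.95% of these windows and in 7 of the 14. Among the 1146 windows of all genes that fell, the form with 3 units was found in 0.436%, GAANNTTC in 6.37% and TTCNNGAA in 6.28%. Each of the 6 genes shown held at least 1 pair, whereas the windows of Hsp90ab1 and Hsf2, which also rose, held neither. No promoter is shown for Hspa1b, LOC108348108 or Hsp90aa1. Hspb6, a chaperone gene that fell, held both pairs. These matches describe letters and are not sites of binding.

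Of 63 members of the 5 chaperone lists, 57 were tested, 17 rose and 4 fell from 12 h to 24 h after 20 Gy, and 36 did not pass the test. The rises were led by the inducible HSP70 genes. Hspa1b (chr20:4877324-4879779, minus strand, build Rnor_6.0), the stress-induced HSP70, was at 13.6, 14.8 and 14.4 FPKM at 12 h and 5612, 4706 and 4553 FPKM at 24 h. The mean at 24 h was 348 times that at 12 h, with no overlap and a log2 change of 8.34 ± 0.14, adjusted p = 4.58e-12, and control cells were at 10.4 ± 1.097 FPKM (SD, n = 3). LOC108348108 (chr20:2699712-2701815, minus strand), which encodes a near-identical HSP70, was at 16.005, 17.5 and 17.1 FPKM at 12 h and 6795, 5521 and 5666 FPKM at 24 h and changed by 8.38 ± 0.14, adjusted p = 4.58e-12. Reads that match both copies can be split between them in more than 1 way, so the share of each copy is uncertain. Hsph1, the HSP110 that recharges HSP70 with nucleotide, was at 13.2, 9.89 and 14.7 FPKM at 12 h and 256, 261 and 265 FPKM at 24 h, and it rose by 4.28 ± 0.15, adjusted p = 4.7e-09, or by 6.06 with unnamed transcripts of its locus. Hspa4l, a relative of Hsph1, rose from 0.866, 0.905 and 1.26 FPKM to 3.96, 2.999 and 2.99 FPKM (1.10 ± 0.19, adjusted p = 0.00066). Together 3 of the 8 members of the HSP70 and HSP110 list that were tested rose and none fell, with a median change of 0.50. Hspa2 and Hspa14 were lower in all libraries at 24 h without passing the test (log2 changes -0.54 and -0.19). Hspa8, the constitutive HSP70, was listed at 0 in all 15 libraries with and without unnamed transcripts, so its level cannot be read from this table.

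In the HSP90 list, 6 of 13 members tested rose and 1 fell, with a median change of 0.73. The stress-inducible HSP90 gene Hsp90aa1 was at 94.7, 89.03 and 76.9 FPKM at 12 h and 459, 515 and 384 FPKM at 24 h (2.36 ± 0.14, adjusted p = 1.47e-07). The constitutive Hsp90ab1 was at 373, 375 and 369 FPKM at 12 h and 1722, 1490.5 and 1513 FPKM at 24 h (2.08 ± 0.09, adjusted p = 1.37e-08). Neither gene overlapped between the times, and control cells were at 81.998 ± 8.45 FPKM and 422 ± 47.6 FPKM (SD, n = 3). The co-chaperones St13, Fkbp4 and Stip1, which couple HSP70 or immunophilins to HSP90, rose by 0.84, 0.75 and 0.73 (Fkbp4 by 1.51 with unnamed transcripts). Chordc1, another HSP90 co-chaperone, rose by 1.06 ± 0.29, adjusted p = 0.0138, and it missed the threshold when either the first 12 h or the first 24 h library was left out (adjusted p 0.0509 to 0.0603), while its locus changed by 2.17. Fkbp5 fell by 1.57 ± 0.52, adjusted p = 0.0354, a call that was lost in 4 of the 6 fits that each left out 1 library (adjusted p up to 0.137), and its locus changed by -0.93. Dnajc10, of the DNAJ list, fell by 0.68 ± 0.15, adjusted p = 0.00334, and its change was below 1.5-fold without the first 24 h library.

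Among DNAJ co-chaperones, 2 of 15 rose and 1 fell, and 4 rose when the third 24 h library was left out. With all libraries these shares were near or below those of all genes tested (9.54% rising and 15.5% falling). Dnajb1, the main partner of HSP70 in the heat shock response, was at 28.5, 31.1 and 27.9 FPKM at 12 h and 509, 374 and 415 FPKM at 24 h (3.83 ± 0.11, adjusted p = 7.74e-10). Dnaja1, which shares that role, was at 93.6, 83.6 and 81.2 FPKM at 12 h and 354, 340.2 and 309 FPKM at 24 h (1.94 ± 0.08, adjusted p = 6.57e-09). Both were several times higher in every library at 24 h, while the median of the list was 0.04. Of the small heat shock proteins, BAG proteins and heat shock factors, 3 of 12 rose and 2 fell, the share that fell being near that of all genes (15.5%). Hspb1, the small heat shock protein that keeps unfolded clients soluble, was at 48.4, 46.2 and 32.3 FPKM at 12 h and 432, 497 and 560.0 FPKM at 24 h (3.54 ± 0.27, adjusted p = 1.86e-06). Bag3, which links HSP70 to Hspb proteins and to autophagy, was at 28.3, 35.1 and 35.97 FPKM at 12 h and 368, 356 and 334 FPKM at 24 h (3.38 ± 0.13, adjusted p = 5.57e-09). Hsf2, a second heat shock factor, rose from 3.75, 4.09 and 3.96 FPKM to 8.53, 9.82 and 8.095 FPKM (0.99 ± 0.16, adjusted p = 0.000412). The muscle-type small heat shock proteins Hspb6 and Hspb7 moved the other way, by -1.66 and -0.97. Among chaperonins, Hspd1, the mitochondrial HSP60, was at 6.89, 7.29 and 6.22 FPKM at 12 h and 560.4, 517 and 387 FPKM at 24 h (5.96 ± 0.76, adjusted p = 8.35e-05), the largest rise of the list. With unnamed transcripts of its locus the change of Hspd1 was 3.52. Of the cytosolic CCT ring, Tcp1 was at 36.97, 32.6 and 32.8 FPKM at 12 h and 58.8, 56.8 and 50.05 FPKM at 24 h (0.68 ± 0.10, adjusted p = 0.000184) and Cct4 changed by 0.65, below 1.5-fold when the first 24 h library was left out. In all, 3 of 9 chaperonins rose and none fell (median 0.52).

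**Figure D2:**
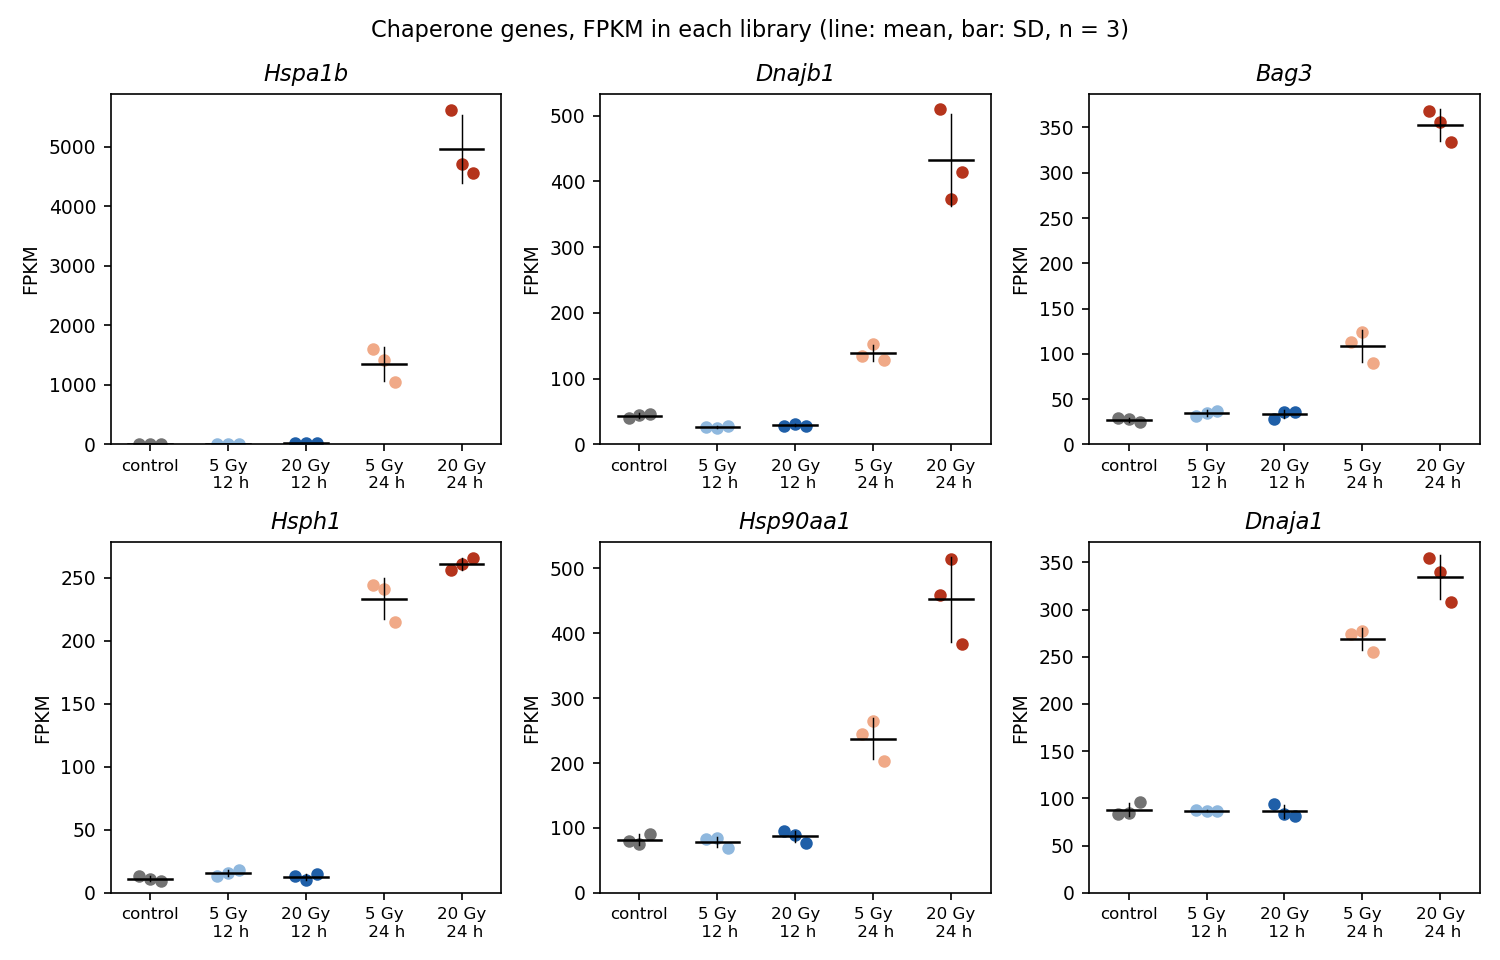
FPKM of 6 chaperone genes in each of the 15 libraries, by group (dose and time). Points are libraries, horizontal lines means and vertical bars SD (n = 3). In each gene the 3 libraries 24 h after 20 Gy lie above all those of control cells and of 12 h.

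Immediate early genes are transcribed within minutes of a signal from stored transcription factors, without new protein. They include the AP-1 factors of the FOS and JUN families, the NR4A nuclear receptors and the KLF and EGR factors, and their messengers are short-lived. DUSP phosphatases and SPRED proteins are induced by the same MAP kinases that they then switch off.

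Of 41 members of the 3 lists of such genes, 37 were tested, 16 rose, 4 fell and 17 did not pass the test. Promoters of 2 of those that rose are shown because they hold a full cyclic AMP response element, TGACGTCA, marked in capitals, in the same window and build as above. Dusp1 (chr10:17184603-17184882, plus strand): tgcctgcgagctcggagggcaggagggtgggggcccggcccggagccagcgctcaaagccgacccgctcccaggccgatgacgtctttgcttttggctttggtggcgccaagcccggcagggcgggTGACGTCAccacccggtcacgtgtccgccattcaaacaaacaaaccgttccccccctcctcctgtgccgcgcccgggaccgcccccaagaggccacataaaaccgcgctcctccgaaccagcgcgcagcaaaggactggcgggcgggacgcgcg
Btg2 (chr13:48087661-48087940, minus strand): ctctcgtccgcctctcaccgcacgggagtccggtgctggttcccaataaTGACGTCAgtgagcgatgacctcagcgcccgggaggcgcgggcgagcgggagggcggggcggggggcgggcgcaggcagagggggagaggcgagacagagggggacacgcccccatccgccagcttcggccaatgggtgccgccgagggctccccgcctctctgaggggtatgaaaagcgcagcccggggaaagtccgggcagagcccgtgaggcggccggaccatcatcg This palindrome was found in 1.83% of all promoter windows, in 3.29% of those of genes tested and in 3.93% of those of all genes that rose. Among windows of all genes that fell it was found in 3.75%. In these lists it was found in 5 of 32 windows and in 2 of the 12 whose gene rose. Of the other holders, Jund fell, Maff did not pass the test and Ier2 was listed at 0 by name in all 15 libraries. Dusp1 (chr10:16970626-16973418, plus strand, Rnor_6.0), the phosphatase that inactivates JNK and p38, was at 29.4, 99.3 and 24.4 FPKM at 12 h and 2056, 1365 and 1898 FPKM at 24 h (5.36 ± 0.40, adjusted p = 1.32e-06). The times were far apart in every library, and with unnamed transcripts of the locus the change of Dusp1 was 4.23. Btg2, an antiproliferative gene that is also a p53 target, was at 28.7, 29.2 and 22.9 FPKM at 12 h and 157, 177 and 196 FPKM at 24 h (2.67 ± 0.16, adjusted p = 2.53e-07).

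The NR4A receptors rose together. Nr4a1 (chr7:142905758-142920216, plus strand) was at 8.08, 5.71 and 4.66 FPKM at 12 h and 849, 446 and 580.5 FPKM at 24 h (6.43 ± 0.30, adjusted p = 3.24e-08). Nr4a3 was at 0.452, 0 and 1.02 FPKM at 12 h and 109, 79.2 and 87.3 FPKM at 24 h (6.01 ± 0.29, adjusted p = 3.97e-08). Its means in control cells and 12 h after 5 Gy and 20 Gy were 0.356, 0.454 and 0.491 FPKM. These lie below the filter of 0.5 FPKM, so Nr4a3 was tested only through the 24 h libraries. Nr4a2 was at 1.16, 0.4001 and 1.21 FPKM at 12 h and 95.3, 43.1 and 67.8 FPKM at 24 h (5.14 ± 0.28, adjusted p = 1.09e-07). Nr4a1 in control cells was at 35.9 ± 3.12 FPKM (SD, n = 3), between the values of both times. Klf4, a factor of endothelial quiescence, was at 52.5, 49.1 and 45.96 FPKM at 12 h and 266, 166 and 364 FPKM at 24 h (2.34 ± 0.25, adjusted p = 2.49e-05). Ier3, which limits NF-kB and apoptosis, fell from 30.5, 42.2 and 40.7 FPKM to 14.2, 18.5 and 17.7 FPKM (-1.12 ± 0.12, adjusted p = 3.11e-05). Egr1 fell by 1.87 ± 0.58, adjusted p = 0.0263, a call that was lost in 4 of the 6 leave-outs (adjusted p up to 0.0853), with the 12 h libraries at 45.1, 13.7 and 5.02 FPKM. Of the 14 members of this list that were tested, 5 rose and 2 fell, and without 1 of 4 single libraries 1 fell.

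Among AP-1 factors, 5 of 11 rose and 1 fell, with a median of 0.24. Fos was at 5.32, 2.85 and 2.09 FPKM at 12 h and 164, 163 and 200.1 FPKM at 24 h (5.38 ± 0.25, adjusted p = 2.79e-08). Fosb was at 0.151, 0 and 0.278 FPKM at 12 h and 1.8004, 10.8 and 14.04 FPKM at 24 h (2.80 ± 0.48, adjusted p = 0.00071). Both FOS genes were low in every library at 12 h. Jun, the partner of FOS, was at 12.8, 9.705 and 9.06 FPKM at 12 h and 189.8, 122 and 143 FPKM at 24 h (3.72 ± 0.16, adjusted p = 1.26e-08). Junb was at 43.5, 39.2 and 26.5 FPKM at 12 h and 371, 353 and 405 FPKM at 24 h (3.36 ± 0.22, adjusted p = 4.41e-07). Both JUN genes were several times higher in every library at 24 h. Atf3, a stress-induced repressor of the same family, rose from near 0 (0.0807, 0.101 and 0.0326 FPKM) to 17.1, 18.7 and 16.8 FPKM (4.11 ± 0.15, adjusted p = 4.7e-09). Jund, the member that is expressed in resting cells, went down from 82.1, 91.8 and 80.7 FPKM to 29.8, 34.4 and 48.9 FPKM (-1.18 ± 0.31, adjusted p = 0.0109). None of these genes overlapped between the times. Fosl2 was listed at 0 by its named transcript in all 6 libraries, but with unnamed transcripts of its locus it was at 10.8, 11.6 and 13.2 FPKM at 12 h and 571, 450.2 and 553 FPKM at 24 h (log2 change 5.35, adjusted p = 3.86e-11). In the MAPK feedback list, 6 of 12 rose and 1 fell, with a median of 0.82. The ERK phosphatase Dusp5 rose by 2.10 ± 0.24, adjusted p = 3.91e-05, the JNK and p38 phosphatases Dusp10 and Dusp16 by 2.04 and 1.34, and the RAF inhibitor Spred1 by 1.67. Dusp14 fell from 18.3, 16.6 and 17.1 FPKM to 8.74, 11.4 and 7.68 FPKM (-0.85 ± 0.17, adjusted p = 0.00185).

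**Figure D3:**
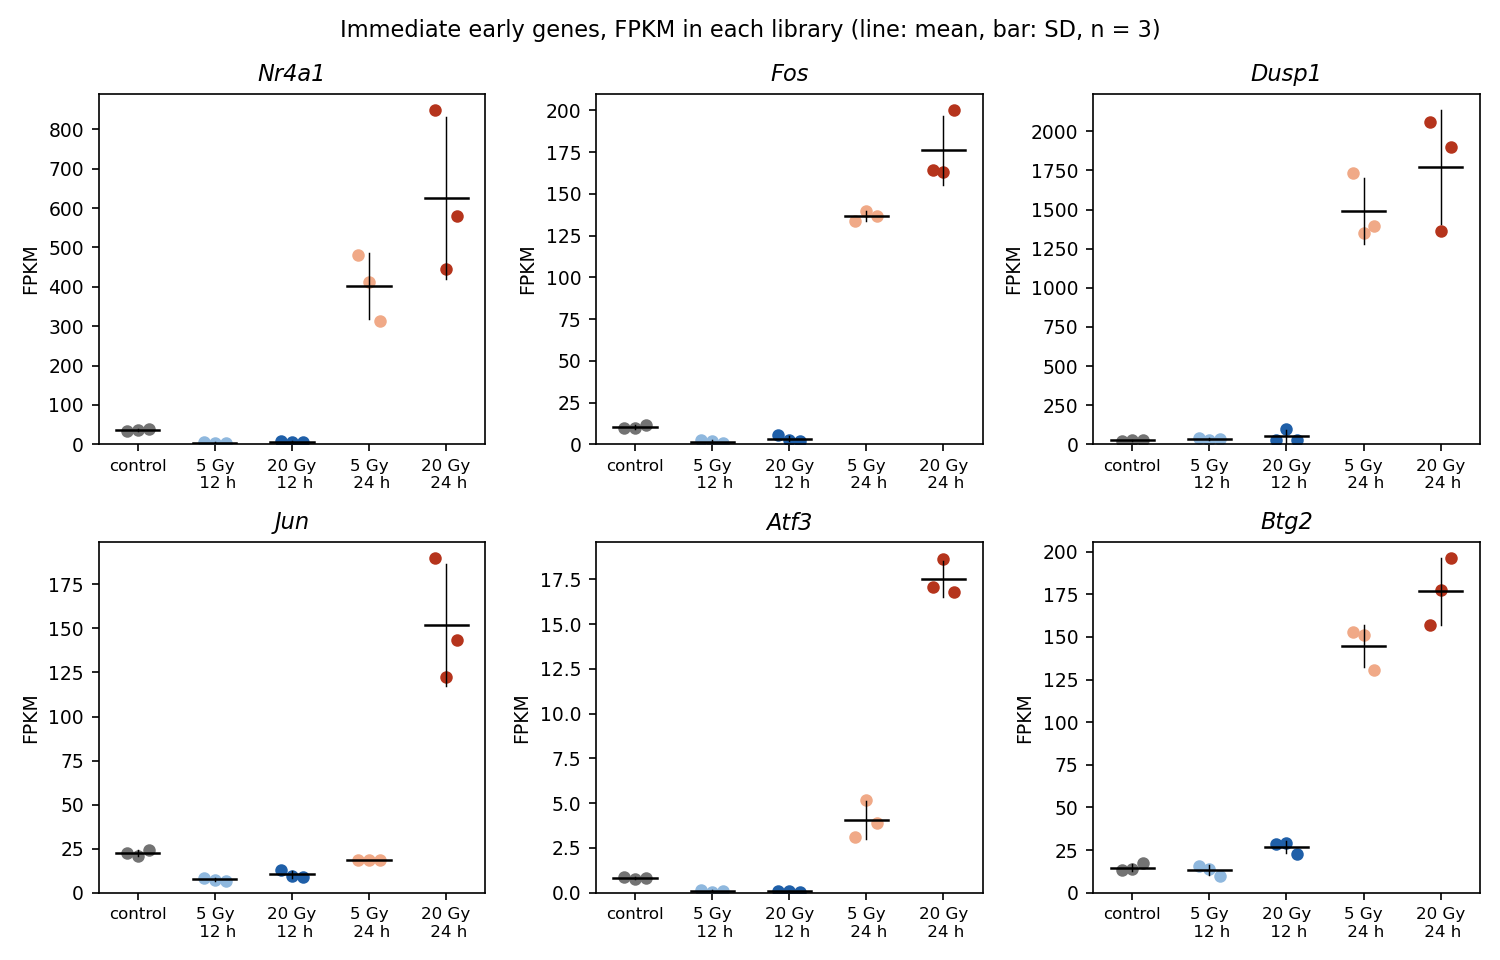
FPKM of 6 immediate early genes in each of the 15 libraries, by group (dose and time), with means (lines) and SD (bars, n = 3). In all 6 genes the libraries 24 h after 20 Gy lie above those 12 h after 20 Gy, and Jun and Atf3 reach a higher level after 20 Gy than after 5 Gy at 24 h.

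The transcription factor p53 is stabilised by DNA breaks and drives genes of cell cycle arrest, repair and death. Of 24 targets tested, 10 rose from 12 h to 24 h and 1 fell, with a median change of 0.39. The polo-like kinase Plk2, which acts at a checkpoint, was at 21.02, 20.6 and 22.4 FPKM at 12 h and 86.5, 106 and 123 FPKM at 24 h (2.23 ± 0.12, adjusted p = 8.8e-08). Ppm1d, the phosphatase that switches the DNA damage signal off again, was at 6.41, 7.49 and 7.73 FPKM at 12 h and 23.2, 24.4 and 27.8 FPKM at 24 h (1.67 ± 0.10, adjusted p = 2.35e-07). Neither gene overlapped between the times. Fas, the death receptor, was at 17.4, 17.7 and 17.4 FPKM at 12 h and 39.7, 38.5 and 43.04 FPKM at 24 h (1.16 ± 0.10, adjusted p = 3.06e-06). The secreted stress factor Gdf15 was at 41.3, 48.1 and 39.5 FPKM at 12 h and 82.9, 72.8 and 100.0 FPKM at 24 h (0.96 ± 0.14, adjusted p = 0.000293). All 4 were also lower in control cells than at 12 h by their means, which were 4.31, 5.41, 5.67 and 1.43 FPKM. Plk3 rose by 2.95, the translesion polymerase Polk by 1.42 and Tp53inp1, which acts in p53-dependent death, by 1.61. Eda2r, a receptor of the TNF family, was at 8.005, 0 and 4.53 FPKM at 12 h and 30.04, 18.2 and 40.6 FPKM at 24 h and changed by 2.99 ± 0.63, adjusted p = 0.00305, or 1.31 with unnamed transcripts. Ddb2 and Psrc1 rose by 0.77 and 0.76 but not with unnamed transcripts (-0.24 and 0.44), and Trim32 fell by 0.72.

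NF-kB factors drive cytokines, chemokines and their own inhibitors. Of 19 members of this list that were tested, 10 rose and 1 fell, with a median of 0.84. Ptgs2, the inducible cyclooxygenase, was at 3.96, 1.53 and 0.912 FPKM at 12 h and 17.1, 16.7 and 15.2 FPKM at 24 h (2.58 ± 0.31, adjusted p = 6.05e-05). The scavenging chemokine receptor Ackr3 was at 8.13, 12.4 and 13.04 FPKM at 12 h and 45.6, 40.4 and 43.2 FPKM at 24 h (1.88 ± 0.19, adjusted p = 1.29e-05). The inhibitor Nfkbia was at 28.3, 32.98 and 29.3 FPKM at 12 h and 94.3, 64.97 and 94.5 FPKM at 24 h (1.44 ± 0.17, adjusted p = 4.54e-05). These 3 genes were higher in every library at 24 h. Birc3, an inhibitor of apoptosis, was listed at 0, 0 and 0.724 FPKM at 12 h and was at 4.28, 4.68 and 5.27 FPKM at 24 h (2.26 ± 0.27, adjusted p = 5.43e-05), and the chemokine Ccl7 rose by 1.94 ± 0.25, adjusted p = 0.000109. The chemokines Ccl2 and Cxcl1 rose by 1.08 and 0.97 (2.23 for the locus of Cxcl1), to 0.974, 1.63 and 1.79 FPKM and 1.17, 3.31 and 3.08 FPKM. Socs3 was at 17.4, 0.192 and 15.7 FPKM at 12 h and 37.5, 73.98 and 76.4 FPKM at 24 h, and its call (adjusted p = 0.0415) was lost in 4 of the 6 leave-outs (adjusted p up to 0.159), while its locus changed by 2.12. Nfkb2 fell by 0.65 by name, by less than 1.5-fold without the second 12 h or 24 h library, and its locus changed by -0.01. Il1a, Il1b and Csf2 were listed at 0 in all 15 libraries.

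The unfolded protein and integrated stress responses slow translation and raise the factors ATF4 and CHOP. In this list 6 of 19 rose and 1 fell, with a median of -0.11, and with unnamed transcripts 7 of 20 rose and 4 fell. The CHOP gene Ddit3 was at 7.07, 5.32 and 4.74 FPKM at 12 h and 18.1, 25.1 and 34.6 FPKM at 24 h (1.97 ± 0.35, adjusted p = 0.00102), its target Trib3 at 0.457, 1.46 and 1.01 FPKM at 12 h and 8.17, 7.64 and 11.1 FPKM at 24 h (2.35 ± 0.25, adjusted p = 2.25e-05). Ppp1r15a, which restores translation, was at 12.4, 11.9 and 11.4 FPKM at 12 h and 57.4, 40.7 and 43.5 FPKM at 24 h (1.89 ± 0.15, adjusted p = 1.92e-06). Groups did not overlap in these genes. Sesn2 and Herpud1 rose by 1.14 and 1.09, Chac1 by 0.79 ± 0.28, adjusted p = 0.046, and the ER protein Creld2 fell by 1.17. The ER chaperone Hspa5, the main HSP70 of the endoplasmic reticulum, was at 323, 347 and 303 FPKM at 12 h and 153, 275 and 248 FPKM at 24 h and did not pass the test (log2 change -0.56 ± 0.25, adjusted p = 0.107). Of 11 targets of NRF2, which answers oxidative stress, 2 rose and 1 fell (all genes 9.54% rising and 15.5% falling). Heme oxygenase Hmox1 was at 58.7, 68.6 and 64.1 FPKM at 12 h and 209, 214 and 254 FPKM at 24 h (1.80 ± 0.11, adjusted p = 2.75e-07). Osgin1 was at 7.74, 9.101 and 7.95 FPKM at 12 h and 42.3, 32.6 and 48.7 FPKM at 24 h (2.17 ± 0.13, adjusted p = 2.01e-07). The quinone reductase Nqo1 fell from 203, 178 and 109 FPKM to 35.2, 94.3 and 52.7 FPKM (-1.48 ± 0.38, adjusted p = 0.00938), so genes of 1 list moved both ways. Of 18 clock genes, 5 rose and 1 fell (median 0.43), and 3 rose without the second 12 h or the third 24 h library. The repressors Bhlhe40 and Bhlhe41 rose by 1.56 ± 0.24, adjusted p = 0.000319 and 1.37 ± 0.16, adjusted p = 4.59e-05, and the heme receptor Nr1d1 was at 3.16, 1.84 and 2.42 FPKM at 12 h and 10.2, 5.69 and 7.87 FPKM at 24 h (1.35 ± 0.43, adjusted p = 0.0308), or 2.01 with unnamed transcripts. Arntl, the partner of CLOCK, was near 0 at 12 h by its named transcript and rose by 1.81, and with unnamed transcripts it was at 13.7, 13.6 and 11.2 FPKM at 12 h and 46.9, 37.4 and 45.8 FPKM at 24 h (1.68). Cry1 fell by 0.96, and by its locus it changed by -0.24.

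Collagens are the fibres and sheets of the extracellular matrix, and type IV collagen and laminin form the basement membrane of brain vessels. Of 16 matrix genes tested, 8 fell and none rose, with a median of -1.23 (all genes -0.13). Col1a1 (chr10:82745801-82762789, plus strand), a chain of fibrillar type I collagen, was at 291, 253 and 236 FPKM at 12 h and 12.9, 9.24 and 8.13 FPKM at 24 h (-4.57 ± 0.33, adjusted p = 1.14e-06), or -3.33 with unnamed transcripts. Col3a1, of type III collagen, was at 338, 404 and 506 FPKM at 12 h and 48.2, 32.5 and 29.1 FPKM at 24 h (-3.48 ± 0.22, adjusted p = 3.72e-07). Both fibrillar collagens were several times lower in every library at 24 h. Col4a1, of basement membranes, was at 86.6, 87.7 and 78.02 FPKM at 12 h and 31.2, 22.98 and 25.3 FPKM at 24 h (-1.64 ± 0.12, adjusted p = 8.96e-07). The fibril regulator Col5a2 was at 169, 182 and 194 FPKM at 12 h and 55.5, 45.4 and 41.7 FPKM at 24 h (-1.92 ± 0.35, adjusted p = 0.0011). The times did not overlap in these genes, and control cells were at 99.9 ± 8.82 FPKM for Col4a1 and 187 ± 95.9 FPKM for Col5a2 (SD, n = 3). Col1a2 was listed at 0 by its named transcript in all 6 libraries, and with unnamed transcripts it was at 278, 348 and 343 FPKM at 12 h and 42.5, 30.4 and 19.1 FPKM at 24 h (log2 change -3.42). The laminin chain Lamb1 fell by 1.32 ± 0.19, adjusted p = 0.000222, and fibronectin, Fn1, had a change of -1.13 ± 0.33, adjusted p = 0.0189. The changes of Col5a1 and Col6a2 were -3.46 (-2.31 for the locus) and -0.60. Beside these falls stands the fall in summed fibroblast and meningeal markers given above, a list that itself holds Col1a1 and Col3a1 and of which 3 of 13 members fell by name, 6 of 13 with unnamed transcripts and none rose (median -0.63). Within it Pdgfra, a receptor of fibroblasts, was at 52.1, 47.3 and 48.3 FPKM at 12 h and 43.8, 56.1 and 54.8 FPKM at 24 h (log2 change 0.06 ± 0.10, adjusted p = 0.685). Of 7 pericyte and smooth muscle markers 4 fell, Pdgfrb, Notch3, Cspg4 and Anpep, and none rose (median -0.63), with the call of Anpep lost in 2 of the 6 leave-outs. The part of other cell types in the collagen values was not tested.

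Cholesterol and fatty acid synthesis is driven by the factors SREBF1 and SREBF2, which are released when membranes run low on sterol. Of 27 genes tested, 14 fell and none rose (median -0.82). Scd2, a fatty acid desaturase, was at 524, 524 and 495 FPKM at 12 h and 277, 321 and 279 FPKM at 24 h (-0.82 ± 0.08, adjusted p = 1.48e-05). Sqle, the squalene epoxidase, was at 49.6, 36.1 and 22.3 FPKM at 12 h and 9.48, 16.02 and 7.38 FPKM at 24 h (-1.62 ± 0.31, adjusted p = 0.00151). In both genes the 3 libraries at 24 h were lower than all 3 at 12 h. Lss, which closes the sterol rings, fell by 1.33 ± 0.15, adjusted p = 3.65e-05, and the changes of Idi1, Fdps and Fads1, which all passed the test, were -1.66, -1.11 and -1.13. Fasn, fatty acid synthase, was at 42.2, 34.6 and 38.1 FPKM at 12 h and listed at 1.599, 0 and 0 FPKM at 24 h, and with unnamed transcripts it was at 46.2, 35.4 and 38.8 FPKM at 12 h and 3.92, 2.85 and 4.72 FPKM at 24 h (log2 change -3.10, adjusted p = 6.64e-09). Srebf2 itself fell from 13.8, 13.3 and 13.2 FPKM to 2.64, 8.93 and 6.49 FPKM (-1.16 ± 0.27, adjusted p = 0.0051), and its inhibitor Insig1 from 83.6, 61.9 and 41.4 FPKM to 25.4, 36.1 and 27.6 FPKM (-1.002 ± 0.29, adjusted p = 0.0188). Scd2 in control cells was higher still, at 854 ± 37.4 FPKM (SD, n = 3).

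Mitosis genes are made in G2 and are lost from cells that stop dividing. Of 26 tested, 16 fell and none rose, with a median of -1.10. Ccnb1, cyclin B1, was at 16.3, 16.9 and 10.5 FPKM at 12 h and 2.39, 5.92 and 4.56 FPKM at 24 h (-1.59 ± 0.27, adjusted p = 0.0007). Ccna2, cyclin A2, was at 19.4, 18.1 and 11.5 FPKM at 12 h and 2.23, 6.16 and 3.84 FPKM at 24 h (-1.82 ± 0.27, adjusted p = 0.000305). Both cyclins were lower in every library at 24 h. Top2a, which untangles chromosomes, was at 21.6, 20.03 and 13.3 FPKM at 12 h and 3.05, 7.32 and 3.48 FPKM at 24 h (-1.83 ± 0.26, adjusted p = 0.000199). Cdc20, the activator of the anaphase complex, was at 15.3, 16.8 and 9.91 FPKM at 12 h and 2.53, 3.48 and 3.55 FPKM at 24 h (-1.82 ± 0.20, adjusted p = 2.6e-05). The times did not overlap, and control cells were higher, with Top2a at 25.7 ± 2.87 FPKM and Cdc20 at 33.003 ± 5.48 FPKM (SD, n = 3). Smaller falls passed the test in the kinases Plk1 (-1.27) and Aurkb (-1.13) and in the survivin gene Birc5 (-1.42). With unnamed transcripts 33 members were tested and 29 fell. Of 32 genes of DNA replication, 12 fell and none rose (median -0.56), but 7 fell when the first 24 h library was left out. Without the first 12 h library 1 of them rose, and without the third 24 h library 2 rose. With unnamed transcripts 2 rose and 13 fell of 36. Rrm1 and Tk1, which make deoxynucleotides, had changes of -0.83 and -1.54, and Mcm5, of the replicative helicase, was at 7.99, 8.502 and 6.43 FPKM at 12 h and 1.996, 3.78 and 3.54 FPKM at 24 h (-1.09 ± 0.26, adjusted p = 0.00606). Of 18 genes of break repair and the checkpoint, 1 fell, Xrcc2, at 2.37, 2.37 and 1.61 FPKM at 12 h and 0.578, 0.7903 and 0.623 FPKM at 24 h (-0.90 ± 0.16, adjusted p = 0.000809). In this list 2 fell without the second or the third 12 h or the third 24 h library, 3 fell without the second 24 h library, and 2 rose and 6 fell of 24 with unnamed transcripts. The bases CCAAT, common in promoters of cell cycle genes, were found in 22 of 29 windows of the mitosis list, in 15 of 19 windows of the lipid list, in 37.5% of all windows and in 38.7% of those of genes tested.

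**Figure D4:**
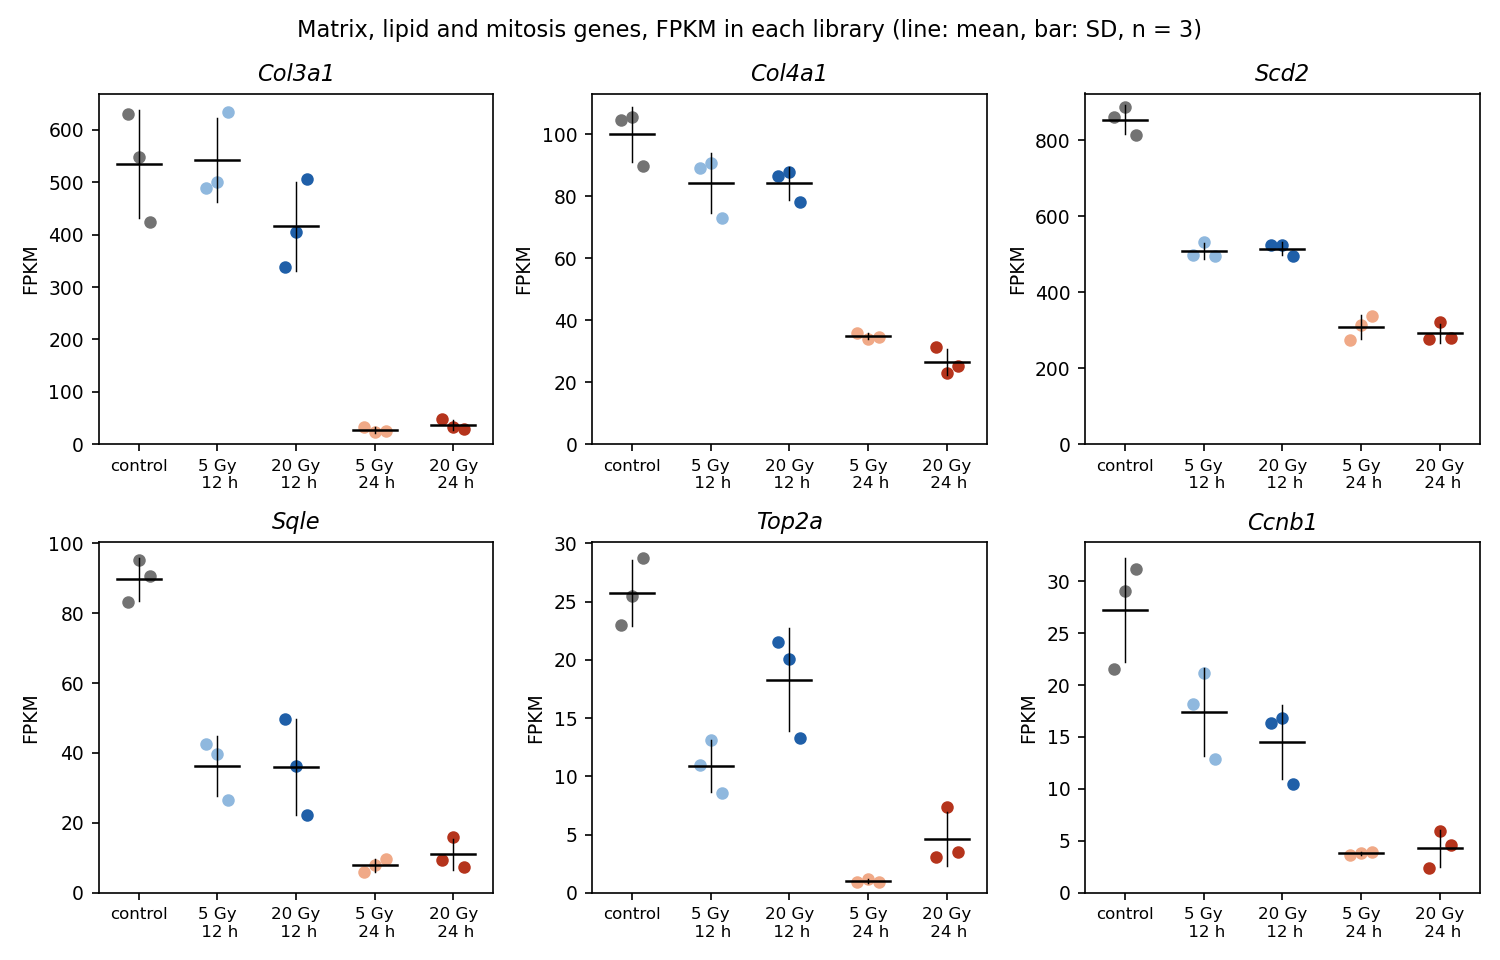
FPKM of 2 collagen, 2 lipid and 2 mitosis genes in each of the 15 libraries, by group (dose and time), with means (lines) and SD (bars, n = 3). In every panel the libraries 24 h after 20 Gy lie below those 12 h after 20 Gy.

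Interferon-stimulated genes answer viral and self nucleic acid, and 5 of 15 fell while 1 rose (median -0.68). Isg15, a ubiquitin-like protein, was at 4.67, 6.02 and 4.103 FPKM at 12 h and 1.33, 1.78 and 1.52 FPKM at 24 h (-1.21 ± 0.17, adjusted p = 0.000156). The GTPase Ifi47 was at 5.9002, 7.22 and 6.22 FPKM at 12 h and 0.465, 2.404 and 1.46 FPKM at 24 h (-1.69 ± 0.26, adjusted p = 0.000371). The peptide transporter Tap1 went the other way, from 20.4, 18.1 and 14.7 FPKM to 42.7, 27.4 and 42.3 FPKM (1.02 ± 0.20, adjusted p = 0.00161). Among TGF-beta genes, 2 of 19 rose and 5 fell, with a median of -0.43, and the share that rose was near that of all genes (9.54%). Ccn1, a matricellular gene that is also an immediate early gene, was at 13.8, 17.8 and 10.9 FPKM at 12 h and 289, 173 and 234 FPKM at 24 h (3.94 ± 0.28, adjusted p = 8.7e-07), while its relative Ccn2 fell by 1.19 ± 0.26, adjusted p = 0.00392. The ligand Tgfb3 was at 9.61, 9.05 and 6.12 FPKM at 12 h and 0.9296, 1.56 and 2.71 FPKM at 24 h (-1.79 ± 0.26, adjusted p = 0.000219), or -1.17 for the locus. Tgfb1 and the BMP target Id1 had changes of -0.81 and -0.90, and the BMP antagonists Nog and Chrd moved in opposite directions (1.11 and -2.27, or -0.85 for the locus of Chrd). Of 13 proteases and inhibitors of the matrix, 3 rose and 2 fell, and at most 1 fell in 5 of the 6 leave-outs. Adamts1, which cleaves proteoglycans, rose from 10.8, 5.97 and 5.46 FPKM to 18.7, 44.9 and 41.6 FPKM (2.06 ± 0.37, adjusted p = 0.00109), and the collagenase Mmp13 from near 0 (0.0684, 0.0536 and 0 FPKM) to 2.002, 2.74 and 1.26 FPKM (1.498 ± 0.19, adjusted p = 8.95e-05). Timp1, an inhibitor of these enzymes, was at 119, 107 and 67.7 FPKM at 12 h and 0.249, 65.3 and 0.29999 FPKM at 24 h, with 1 library at 24 h close to those at 12 h, and its call (adjusted p = 0.0488) was lost in 5 of the 6 leave-outs (up to 0.171).

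SR proteins choose splice sites and are phosphorylated by CLK kinases. Of 12 SR factors tested, 1 rose and 2 fell (median -0.20), so that the share called was near that of all genes. The rise, of Srsf4, was lost without the second 12 h or the third 24 h library (adjusted p 0.0563 and 0.0665), and with unnamed transcripts 1 rose and 4 fell. Srsf5 was at 62.9, 63.3 and 52.4 FPKM at 12 h and 7.499, 9.53 and 4.64 FPKM at 24 h (-2.92 ± 0.25, adjusted p = 4.47e-06). Srsf6 was at 30.7, 27.1 and 27.2 FPKM at 12 h and 6.97, 5.47 and 5.63 FPKM at 24 h (-2.06 ± 0.12, adjusted p = 1.29e-07). Both were several times lower in every library at 24 h, and with unnamed transcripts the changes were -3.28 and -2.42. The kinase Clk1, 1 of 4 cold-inducible and CLK genes tested and the only one of them that passed, was at 16.3, 17.1 and 21.4 FPKM at 12 h and 141, 120.2 and 108 FPKM at 24 h (2.69 ± 0.26, adjusted p = 9.55e-06), or 1.205 with unnamed transcripts. The arginine and serine rich gene Rsrp1 (chr5:153260930-153264669, plus strand) was at 137, 155 and 169 FPKM at 12 h and 5.35, 6.13 and 7.73 FPKM at 24 h (-4.39 ± 0.13, adjusted p = 1.31e-09). Leng8 was at 34.3, 34.2 and 26.5 FPKM at 12 h and 0.491, 2.41 and 0.05202 FPKM at 24 h (-4.21 ± 0.72, adjusted p = 0.000712). Blcap, whose transcript is a known substrate of RNA editing, fell from 36.9, 38.3 and 33.6 FPKM to 1.06, 0.698 and 0.312 FPKM (-4.49 ± 0.64, adjusted p = 0.00019), with -3.25 for the locus.

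Messengers of the mitochondrial genome encode subunits of the respiratory chain. Of 11 tested, 5 fell and none rose (median -0.54). Mt-nd5 was at 574, 532 and 551 FPKM at 12 h and 242, 199 and 147 FPKM at 24 h (-1.52 ± 0.14, adjusted p = 7.04e-06), Mt-nd3 at 368, 289 and 261 FPKM at 12 h and 87.4, 85.7 and 40.5 FPKM at 24 h (-2.15 ± 0.25, adjusted p = 4.03e-05). Mt-nd1 was at 1248, 1222 and 1138 FPKM at 12 h and 787, 698 and 539.7 FPKM at 24 h (-0.85 ± 0.12, adjusted p = 0.000172). These 3 genes of complex I were lower in every library at 24 h. Mt-nd2 was at 1066, 993 and 915 FPKM at 12 h and listed at 793, 0 and 0 FPKM at 24 h, and its call (adjusted p = 0.015) was lost without the second or the third 24 h library. Short mitochondrial transcripts AY172581.14 (chrMT:2665-2739, plus strand) and AY172581.23 (chrMT:11538-11605, plus strand) had changes of -3.76 ± 0.15, adjusted p = 7.42e-09, and -3.97 ± 0.15, adjusted p = 5.57e-09. Both spans are shorter than the reads of 150 bases, so their FPKM are uncertain as levels of a transcript. Subunits of the respiratory chain encoded in the nucleus moved little, with 3 of 41 falling, 1 of 41 without the second 12 h or the third 24 h library, none rising and a median of -0.18.

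Of 40 cytosolic ribosomal proteins none rose or fell (median 0.05), and of 31 proteasome subunits 1 fell, Psmc5, with a change of -2.29, or -0.50 for its locus, which was not called (median -0.17). Of 15 contractile genes and targets of SRF, 3 fell, 1 without the first 12 h library and 0 without the first 24 h library. Of 20 genes of glycolysis and hypoxia, 3 rose and 4 fell, and 1 rose without any 1 of 4 libraries. The angiogenic factor Vegfa was at 1.65, 1.63 and 0.979 FPKM at 12 h and 3.87, 4.17 and 4.49 FPKM at 24 h (1.11 ± 0.27, adjusted p = 0.00672), and the mTOR inhibitor Ddit4 fell from 86.1, 99.2 and 96.95 FPKM to 25.6, 38.4 and 50.6 FPKM (-1.33 ± 0.21, adjusted p = 0.000487). These hypoxia genes did not overlap between the times but moved in opposite directions. Of 20 lysosome and autophagy genes, 1 rose, the master factor Tfeb (1.12 ± 0.17, adjusted p = 0.00029). 2 fell, of which Map1lc3b, a protein of the autophagosome, was at 115, 131 and 135 FPKM at 12 h and 68.1, 61.9 and 72.8 FPKM at 24 h (-0.90 ± 0.12, adjusted p = 0.000104). Of 16 Wnt and Frizzled genes 1 rose and 2 fell, with every one of these calls lost in some leave-outs. In the lysosome and Wnt lists the shares called were below those of all genes tested, 9.54% rising and 15.5% falling. Agtr1a, the angiotensin receptor, 1 of 7 vasoactive genes tested, was at 211, 234 and 226 FPKM at 12 h and 70.2, 117 and 106 FPKM at 24 h (-1.22 ± 0.17, adjusted p = 0.000193). No other gene of this list passed the test with all libraries, but 2 fell without the first or the third 12 h or the second 24 h library, 1 rose without the third 24 h library, and 2 rose and 3 fell of 8 with unnamed transcripts.

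Store-operated calcium entry refills calcium stores through ORAI channels, which open when STIM proteins sense an empty endoplasmic reticulum. Of 13 genes of calcium handling tested, 2 rose and 5 fell, and 3 fell without the third 12 h or the first 24 h library. The channel Orai2 was at 5.09, 5.398 and 6.44 FPKM at 12 h and 6.04, 5.701 and 7.06 FPKM at 24 h. In control cells Orai2 was at 3.34, 3.32 and 3.13 FPKM, below every library at either time after 20 Gy. The times overlapped, and the change did not pass the test (0.13 ± 0.12, adjusted p = 0.446). Orai3 was at 3.62, 6.95 and 6.57 FPKM at 12 h and 1.35, 1.94 and 2.003 FPKM at 24 h (-1.25 ± 0.28, adjusted p = 0.00482). The sensor Stim2 was at 16.7, 17.4 and 19.9 FPKM at 12 h and 34.3, 28.9 and 26.3 FPKM at 24 h (0.69 ± 0.16, adjusted p = 0.00489). Stim1 fell by 0.96 ± 0.34, adjusted p = 0.0473, a call that was lost in 4 of the 6 leave-outs (adjusted p up to 0.149) with 1 library at 12 h standing apart (15.2, 14.7 and 41.3 FPKM). The receptor channel Itpr3 fell by 3.35 ± 0.70, adjusted p = 0.00287, with -2.03 for the locus, and Calhm2, a large-pore channel, rose by 0.998 ± 0.12, adjusted p = 4.84e-05. Orai1 was listed at 0 in all 15 libraries by its named transcript, and with unnamed transcripts it was at 2.37, 9.92 and 9.395 FPKM at 12 h and 8.86, 2.796 and 10.1 FPKM at 24 h (log2 change 0.04).

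The 12 strongest rises and 12 strongest falls, among called genes of at least 5 FPKM on average chosen for no overlap, held several genes that are in none of the lists. Slc25a25, a calcium-dependent mitochondrial carrier of ATP, was at 0.931, 1.81 and 1.01 FPKM at 12 h and 151, 118 and 127 FPKM at 24 h (5.90 ± 0.19, adjusted p = 2.28e-09), or 4.15 with unnamed transcripts. AABR07047256.1 and AABR07008016.1, annotated by clone names only, rose by 6.26 ± 0.31, adjusted p = 5.12e-08 and 5.26 ± 0.40, adjusted p = 1.45e-06. Ubl5, a ubiquitin-like splicing protein, was at 1.403, 0.391 and 0.835 FPKM at 12 h and 53.8, 58.7 and 57.03 FPKM at 24 h (4.97 ± 1.75, adjusted p = 0.0459), but its call was lost in all 6 leave-outs and its locus changed by 0.71 (adjusted p = 0.175). The RNA helicase Ddx3x fell by 3.76 by its named transcript, while its locus was at 101, 85.98 and 86.7 FPKM at 12 h and 81.7, 99.9 and 81.7 FPKM at 24 h (-0.06). LOC100909441 fell by 5.002 ± 0.83, adjusted p = 0.000623 (-2.61 for the locus), and Tuba1b, an alpha tubulin, had a change of -3.71 ± 1.23, adjusted p = 0.0359, with its call lost in 5 of the 6 leave-outs (adjusted p up to 0.147).

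To see whether the change over time depended on the dose, the change from 12 h to 24 h after 20 Gy was set against that after 5 Gy, which shares no library with it. After 5 Gy 1274 genes rose (11.3%) and 1645 fell (14.5%), with a median change of -0.10. Of the genes that rose after 20 Gy, 810 also rose after 5 Gy, which is 75.1% of the former and 63.6% of the latter. Of those that fell, 1162 fell at both doses (66.4% and 70.6%), and 6 genes passed the test in opposite directions. Across the 11310 genes, which are not independent of each other and share depth and culture within a time, Pearson's r of both changes was 0.684. The difference between the doses passed the test for 27 genes (0.239%). Of these, 16 had the higher change after 20 Gy and 11 the lower. At an unadjusted limma p under 0.05, with a difference of at least 1.5-fold still asked for, there were 716 genes. Of the 27, 15 were also called with unnamed transcripts.

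Of the 57 members of the chaperone lists tested, 17 rose after 20 Gy and 20 after 5 Gy. Of the 37 in the immediate early lists, 16 and 20 rose. Among all genes tested the shares that rose were 9.54% and 11.3%. Mitosis genes fell in 16 and 17 of 26, and genes of lipid synthesis in 14 and 17 of 27. The shares of all genes that fell were 15.5% and 14.5%. Some chaperones were among the genes with the higher change after 20 Gy. Hspa1b reached 1354 ± 286 FPKM (SD, n = 3) at 24 h after 5 Gy and 4957 ± 573 FPKM after 20 Gy, and its log2 change was 6.92 after 5 Gy and 8.34 after 20 Gy (difference 1.42 ± 0.20, adjusted p = 0.012). Bag3 was at 113, 124 and 89.7 FPKM at 24 h after 5 Gy and changed by 1.63 there against 3.38 (difference 1.75 ± 0.18, adjusted p = 0.00115). For Dnajb1 the difference was 1.498 ± 0.15, adjusted p = 0.00115. All libraries after 20 Gy were above those after 5 Gy at 24 h in each of these genes. The second HSP70 copy, LOC108348108, also passed, with a difference of 1.45 ± 0.20, adjusted p = 0.012. The remaining members of the chaperone lists did not pass the test of the difference, among them Hspb1, which had a difference of 2.03 ± 0.39, adjusted p = 0.0722, Hsp90aa1 of 0.78 ± 0.19, adjusted p = 0.168, and Hsph1 of 0.46 ± 0.21, adjusted p = 0.514. In the immediate early lists 2 genes differed, Jun, which was at 18.7, 18.5 and 18.4 FPKM at 24 h after 5 Gy (difference 2.52 ± 0.22, adjusted p = 0.000312), and Atf3 (1.91 ± 0.21, adjusted p = 0.00147). Fos, Nr4a1 and Dusp1 had differences of -0.36 ± 0.35, adjusted p = 0.763, 0.13 ± 0.43, adjusted p = 0.948 and -0.11 ± 0.56, adjusted p = 0.967. Hbegf, a ligand of the EGF receptor chosen here after its values were seen, was at 3.096, 2.78 and 2.8004 FPKM at 12 h and 35.01, 32.5 and 32.7 FPKM at 24 h after 20 Gy, with a difference of 0.98 ± 0.16, adjusted p = 0.0306. It was higher in every library at 24 h. Gem, a small GTPase that blocks calcium channels, rose at both doses but less after 20 Gy, where it was at 3.58, 3.06 and 6.75 FPKM at 24 h, than after 5 Gy, where it was at 39.7, 30.3 and 60.8 FPKM (difference -2.97 ± 0.50, adjusted p = 0.0381).

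**Figure D5:**
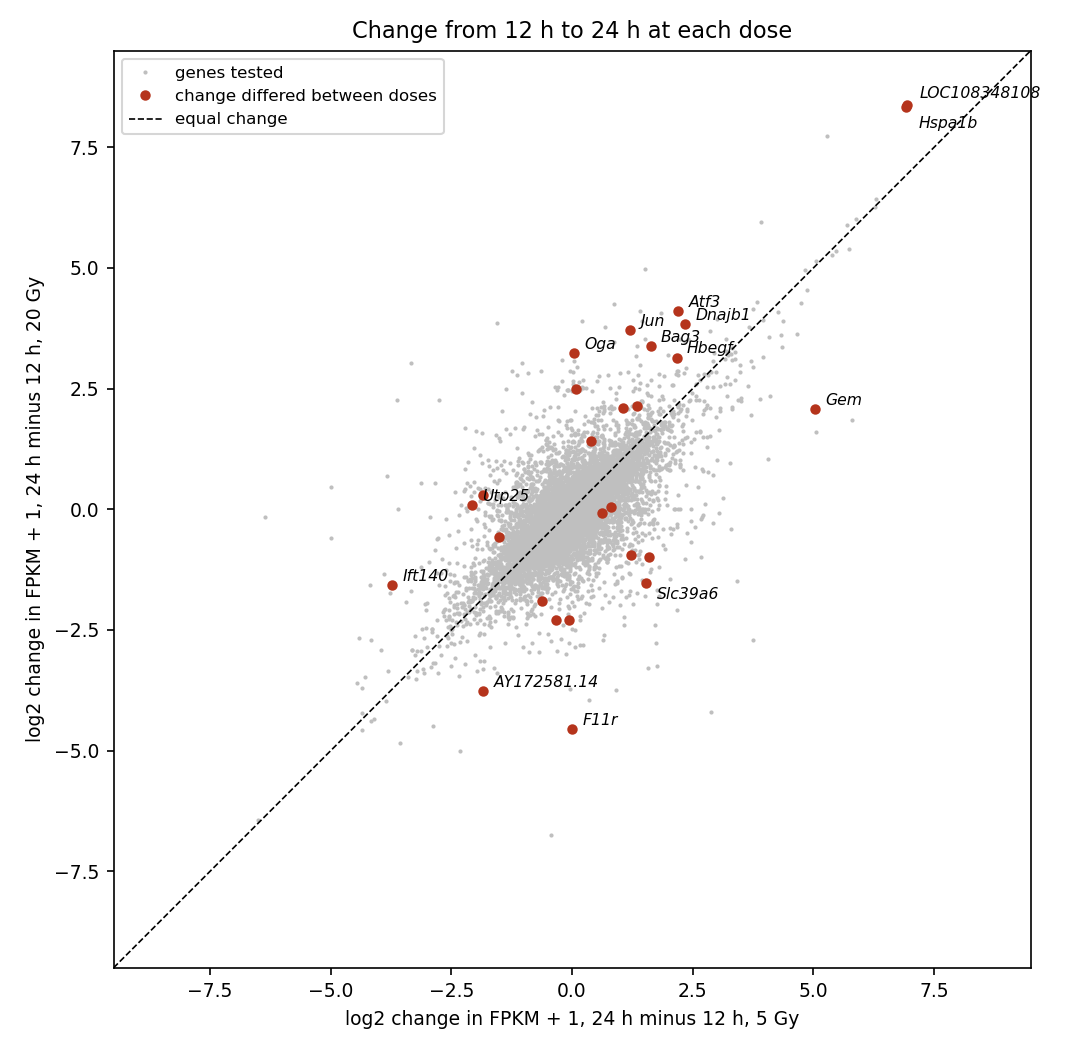
Change of each of the 11310 genes from 12 h to 24 h, in log2 of FPKM + 1, after 5 Gy (horizontal axis) and after 20 Gy (vertical axis). The dashed line marks equal change, and the 27 genes whose change differed between the doses are in red. Across all genes Pearson's r is 0.684, and both inducible HSP70 copies lie at the top right.

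The deposited table gives a gene name to 41064 of its 85322 transcripts, and the remaining 44258 are assemblies without one. When the 29433 unnamed transcripts that share a locus with a single gene name were added to that name, 13081 genes passed the filter, 2015 rose (15.4%) and 2654 fell (20.3%), against 9.54% and 15.5% before. Of the 2830 genes called by name, 2498 were called the same way, 320 were not called and 12 were called the other way, and 1415 genes were called only with the added transcripts. Among chaperones, 27 of 61 rose and 4 fell after this addition. Ptges3, an HSP90 co-chaperone listed at 0 by name in all libraries, was then at 49.8, 51.5 and 44.8 FPKM at 12 h and 92.8, 84.7 and 73.4 FPKM at 24 h (log2 change 0.76, adjusted p = 1.79e-05). Hspe1, the lid of the mitochondrial chaperonin, was at 85.02, 83.3 and 74.3 FPKM at 12 h and 216, 160.0 and 177 FPKM at 24 h (1.17, adjusted p = 1.17e-06). The mitochondrial HSP70 gene, Hspa9, was listed by name at 0, 0 and 33.9 FPKM at 12 h and 115, 73.1 and 0 FPKM at 24 h, and with unnamed transcripts it was at 42.1, 42.05 and 47.04 FPKM at 12 h and 120.1, 97.7 and 96.01 FPKM at 24 h (1.23, adjusted p = 2.77e-07). The values at 24 h were higher in every library for these chaperones once the unnamed transcripts were counted. Matrix genes went from 8 of 16 to 15 of 20 that fell, genes of lipid synthesis from 14 of 27 to 22 of 28, and clock genes from 5 to 9 that rose. Of 13 fibroblast markers 3 fell by name and 6 fell with unnamed transcripts, and of 7 pericyte markers 4 fell by either sum. Of 7 endothelial markers Tjp1 rose and Ocln fell by name, with calls lost in 5 and 4 of the 6 leave-outs, and with unnamed transcripts 1 of 8 rose and none fell. Of 5 astrocyte markers Aldh1l1 rose by 2.94 by name, a call that was lost without the second or the third 24 h library, while its locus changed by -0.05, and with unnamed transcripts none rose and 1 fell. The neuron marker Stmn2, 1 of 3 tested, and the single microglial marker tested, Tmem119, fell by either sum, with changes by name of -0.77 and -0.61 and calls lost in 4 and 2 of the 6 leave-outs. The single oligodendrocyte marker tested did not pass. The microglial genes Cx3cr1 and Ptprc were listed at 0 in all libraries.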

How the data were processed

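RNA of 15 cultures, 3 in each of 5 groups named by their titles, was sequenced by the authors with reads of 150 bases. According to the study's methods and the submitters' processing notes, the authors trimmed reads with Trimmomatic, checked them with FastQC, aligned them to Rnor_6.0 with HISAT2 2.0.13, made BAM files with samtools 1.9 and assembled transcripts with StringTie 1.3.5; kallisto and edgeR are also named, and their counts were not analysed here. The deposited table holds FPKM of each transcript in each library, as normalized by the authors. FPKM carry no read counts, so counting error could not be given, and depth is known only as aligned bases.

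FPKM were summed by gene name, genes with a mean of at least 0.5 over the 15 libraries were kept, and log2(FPKM + 1) was fitted with limma 3.58.1 in R 4.3.3, with 1 mean per group, all 15 libraries (10 residual degrees of freedom) and empirical Bayes variances with a trend. A gene was called at a Benjamini-Hochberg adjusted p under 0.05 and a fold of at least 1.5. The pseudocount understates the change of low genes. The same fit gave the difference between the doses. The fit was tested on simulated data. Genes named are the 12 strongest rises and 12 strongest falls among called genes of at least 5 FPKM at 1 locus without overlap, called members of gene lists and others of those lists for context, genes that the study names, and up to 6 genes in each direction that differed between the doses. The comparison, its members and the gene lists were chosen with earlier results of these data known. The sum with unnamed transcripts was added after seeing the data. Alternatives changed the pseudocount, filter, scaling, libraries in the fit, variance trend, replicate term, thresholds, gene level value, or left out 1 library. Promoter windows came from RefSeq (GRCr8) and were matched by symbol; gene positions are those of the deposited table (Rnor_6.0). Some members of the lists are counted but not reported here by name.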

Additional observations from a re-analysis of the deposited data

Results flagged for a closer look

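Between the doses the change from 12 h to 24 h differed for 27 genes by the test of that difference, and 12 of these, up to 6 in each direction, are given here with their values and the difference (20 Gy minus 5 Gy, log2 ± SE, limma adjusted p). Oga, the enzyme that removes O-GlcNAc, was at 0.00521, 0 and 0.06996 FPKM at 12 h and 8.54, 9.63 and 7.72 FPKM at 24 h after 20 Gy, with a change of 0.05 after 5 Gy and a difference of 3.18 ± 0.27, adjusted p = 0.000283. With unnamed transcripts of its locus its change after 20 Gy was 0.02. Jun was at 12.8, 9.705 and 9.06 FPKM at 12 h and 189.8, 122 and 143 FPKM at 24 h after 20 Gy and at 8.58, 7.29 and 6.82 FPKM and 18.7, 18.5 and 18.4 FPKM after 5 Gy (difference 2.52 ± 0.22, adjusted p = 0.000312). AABR07000398.1 was at 0.987, 0.963 and 1.02 FPKM at 12 h and 7.94, 15.02 and 8.94 FPKM at 24 h after 20 Gy, and its change after 5 Gy was 0.09 (difference 2.41 ± 0.27, adjusted p = 0.00184). Utp25, of ribosome biogenesis, changed by 0.09 after 20 Gy, which did not pass the test, and by -2.07 after 5 Gy (difference 2.17 ± 0.18, adjusted p = 0.000283). Its named transcript was already at 0.0103, 0.0328 and 0.0322 FPKM 12 h after 20 Gy, against 3.99, 4.53 and 3.90 FPKM 12 h after 5 Gy. With unnamed transcripts its mean went from 3.64 to 5.13 FPKM after 20 Gy and from 6.21 to 5.94 FPKM after 5 Gy. Ift140, of transport in cilia, changed by -1.57 and -3.73 (difference 2.16 ± 0.24, adjusted p = 0.00184), while its locus changed by -0.32 after 20 Gy and was not called. Adam8, a metalloprotease, changed by 0.30 after 20 Gy, which did not pass the test, and by -1.85 after 5 Gy (difference 2.15 ± 0.38, adjusted p = 0.0454).

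F11r, a junctional adhesion molecule, was at 21.8, 22.2 and 23.8 FPKM 12 h after 20 Gy and listed at 0 in every library at 24 h (difference -4.56 ± 0.12, adjusted p = 2.18e-09), and by its locus it changed by -0.52, which was not called. Slc39a6, a zinc transporter, changed by -1.52 after 20 Gy and by 1.53 after 5 Gy (difference -3.05 ± 0.46, adjusted p = 0.0201), with -0.03 for the locus after 20 Gy. Gem changed by 2.07 and 5.04 (difference -2.97 ± 0.50, adjusted p = 0.0381). Miip changed by -0.997 and 1.60 (difference -2.59 ± 0.44, adjusted p = 0.0407), its call after 20 Gy was lost in 3 of the 6 leave-outs, and its locus changed by -0.39, which was not called. AABR07021596.4 was at 6.42, 6.17 and 5.72 FPKM at 12 h and 0.411, 0.436 and 0.482 FPKM at 24 h after 20 Gy, with a change of -0.06 after 5 Gy (difference -2.24 ± 0.35, adjusted p = 0.0254), while its locus changed by 0.13 after 20 Gy, which was not called. AABR07014275.1 changed by -0.95 and 1.21 (difference -2.17 ± 0.34, adjusted p = 0.028), while with unnamed transcripts its change after 20 Gy turned to 1.71 (adjusted p = 2.82e-06).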

How the results depend on the processing

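The number of genes called between the times was 2830, fell to 1516 (625 rising, 891 falling) at a fold of at least 2 and was 4669 (2015 and 2654) with unnamed transcripts, while the other settings gave 2444 to 3307 and leaving out 1 library gave 2457 to 2897. The number that differed between the doses was 27. It was 716 at an unadjusted p with the fold threshold kept, and 48 (23 and 25) with unnamed transcripts. Leaving out 1 library gave 17 (without the first 12 h library after 5 Gy) to 52 (without the third 24 h library after 20 Gy). Rescaling each library to the same sum gave 28 genes but turned the split from 16 higher and 11 lower to 12 and 16. With a replicate block the counts were 2780 and 21. The deviations of libraries with the same number correlated at -0.014, 0.013 and -0.0063, so no pairing by number was seen in these values. Whether libraries of the same number shared an animal or a preparation is not stated in the sources used here. The alternatives covered 161 named genes, including Orai2, Utp25 and Adam8, which had no call. Of these, 93 kept direction and call, or the lack of a call, in every alternative. The call was lost by 36 without 1 library, 41 at a fold of at least 2, 25 in a fit of the groups compared only and 14 with unnamed transcripts. With these transcripts 3 reversed: AABR07014275.1 (1.71), AABR07021596.4 (0.13) and Aldh1l1 (-0.047); the cause was not tested.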
